A study of Mus musculus with 4 samples.

Results

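The genes described here are a core set of the Notch pathway, made up of the receptor genes *Notch1*, *Notch2*, and *Notch3*, the ligand genes *Jag1*, *Jag2*, and *Dll1*, and the target genes *Hes1*, *Hey1*, *Hey2*, and *Heyl*. They were taken by symbol and account for 10 of the 23946 gene symbols in each library, and all 10 were found in all 4 libraries. RNA had been sequenced from CD51+;CD200+ cells, which the study treats as skeletal stem/progenitor cells. The cells were sorted from 3 cranial sutures, the coronal (COR), the sagittal (SAG), and the posterior frontal (PF), and, for comparison, from the growth plate (GP) of the tibia. All 4 libraries came from wild-type CD-1 mice at postnatal day 3, no gene was deleted and no agent was given, and there was 1 library per tissue. A suture sample was cut out whole: bone edges, the mesenchyme between them, and the membranes on either face (periosteum and dura mater). The sorted cells may have come from any of these layers. The sort was for cells positive for CD51 and CD200 and negative for CD45, Ter119, Tie2, Thy1, 6C3, and CD105. In the mouse, the PF suture closes early in life while the SAG and COR sutures stay patent, and at this age all were still patent. The cells were collected from many mice, and how these were divided among the libraries is not stated.

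Notch receptors sit on the cell surface and are activated by ligands on a neighbouring cell. The ligand triggers cleavage of the receptor by ADAM proteases and gamma-secretase, and the freed intracellular part enters the nucleus, where it joins RBPJ and switches on target genes such as those of the Hes and Hey families of transcriptional repressors. In bone, the pathway is known for holding progenitors back from osteoblast differentiation, and in vessel walls Notch3 and Heyl are known from pericytes and smooth muscle cells.

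The values are FPKM, fragments per kilobase of transcript, scaled to the mapped fragments of a library, as the authors estimated them with Cuffdiff. Total FPKM was from 447174 to 550958 per library, and 11402 to 12263 genes were at 1 FPKM or more. Sequencing depth is not stated with the values, but low values fell on steps of a single fragment, and by these steps PF held 43.9% of the fragments of SAG, COR 88.0%, and GP 84.2%. The same steps gave an estimated fragment number behind each value below, on the assumption that FPKM scales with the fragments of a library. With 1 library per tissue the spread between samples of a tissue is unknown, so no test was made, no difference carries an error, and no neighbours in an order of tissues can be called different or alike. Differences between libraries are given as log2 ratios of FPKM + 1, which makes a change look smaller where both values are low. In these sorted bulk samples, fewer cells of a type and less RNA per cell cannot be told apart.

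Of the 10 genes, 8 reached 1 FPKM in PF, 8 in GP, 7 in SAG, and 7 in COR. Their median level was 3.25 FPKM in PF, 3.09 in GP, 2.21 in SAG, and 1.70 in COR, and the median of all genes was 0.912, 0.904, 1.20, and 0.674 FPKM for these libraries. PF held the highest value for 5 of the 10 genes, SAG for 3, GP for 2, and COR for 0. The share of all genes highest in each library was not counted, so this count is not read as a trait of the set. The target genes *Hes1* and *Hey1* stood highest in most libraries, and the ligand genes *Jag2* and *Dll1* stood lowest in all but SAG, each listed at 0 in 1 suture.

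**Figure D1:**
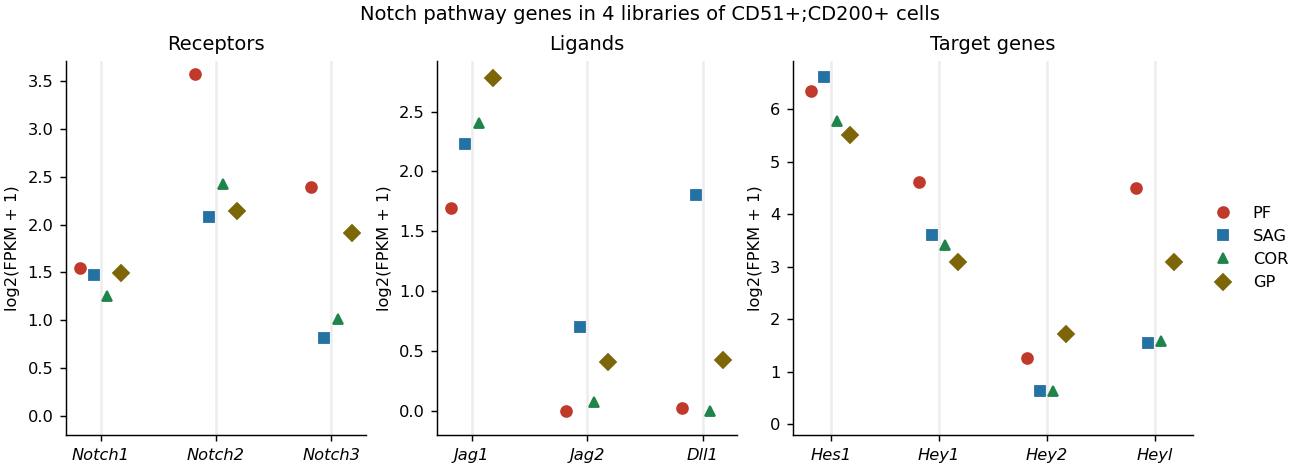
Levels of the 10 Notch pathway genes as log2(FPKM + 1), by class, with 1 point per library for PF, SAG, COR, and GP and a separate vertical scale for each class. *Heyl* and *Notch2* stand highest in PF, at 21.5 and 10.9 FPKM, *Dll1* stands highest in SAG, at 2.5 FPKM, and the 4 values of *Notch1* lie between 1.37 and 1.91 FPKM.

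Among the receptors, *Notch2* was the most abundant in every library. *Notch2* (mm9, chromosome 3, 97817461 to 97954290) had 10.9 FPKM in PF, 3.42 in GP, 3.22 in SAG, and 4.37 in COR, from an estimated 1954, 1175, 1317, and 1570 fragments. PF held the highest value, and the other libraries lay between 3.22 and 4.37 FPKM. On the log2 scale PF exceeded SAG by 1.49, COR by 1.15, and GP by 1.43, or 2.82-fold for PF over SAG. *Notch2* encodes a broadly expressed receptor that is known from the skeleton, where it acts in both osteoblast and osteoclast lineages.

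*Notch3* (chromosome 17, 32257765 to 32303825) encodes the receptor typical of pericytes and vascular smooth muscle. Its level was 4.26 FPKM in PF, 2.76 in GP, 0.764 in SAG, and 1.02 in COR, from an estimated 585, 728, 239, and 279 fragments. PF and GP held the higher values, and SAG and COR the lower. The log2 ratio was 1.58 for PF over SAG, or 2.98-fold, which is just under 3-fold, and 1.38 for PF over COR. PF and GP were closer, with a log2 ratio of 0.48, and GP exceeded SAG, with a log2 ratio of -1.09 for SAG over GP.

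*Notch1* (chromosome 2, 26313423 to 26372183) encodes the receptor best known from lymphocytes and neural progenitors. It was at 1.91 FPKM in PF, 1.82 in GP, 1.77 in SAG, and 1.37 in COR. The span from the lowest to the highest library was 1.23-fold on the FPKM + 1 scale, the narrowest of the 10 genes. Within a library, *Notch2* was 5.70 times *Notch1* in PF, 1.82 times in SAG, 3.18 times in COR, and 1.88 times in GP.

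The receptor mix differed between libraries even though its leading gene was the same. As a share of the summed FPKM of the 3 receptor genes, *Notch1* took 11.2% in PF, 22.7% in GP, 30.7% in SAG, and 20.3% in COR. The share of *Notch3* was 24.9% in PF, 34.6% in GP, 13.3% in SAG, and 15.0% in COR. The summed level was 17.1 FPKM in PF, 8.0 in GP, 5.75 in SAG, and 6.76 in COR. These shares do not change when a whole library is scaled up or down.

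Among the ligands, *Jag1* was the leading gene in every library and was lowest in PF. *Jag1* (chromosome 2, 136907192 to 136942380) encodes the Jagged ligand whose loss of function causes Alagille syndrome. It was at 2.25 FPKM in PF, 5.88 in GP, 3.69 in SAG, and 4.29 in COR, from an estimated 215, 1080, 804, and 824 fragments. The order ran from PF at the bottom through SAG and COR to GP at the top, and GP was 2.12-fold above PF on the FPKM + 1 scale. The log2 ratio was -0.53 for PF over SAG, -0.70 for PF over COR, and -1.08 for PF over GP.

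*Dll1* (chromosome 17, 15504318 to 15513836) encodes a Delta ligand known from somites and neural progenitors. SAG held 2.5 FPKM, GP 0.347, and PF 0.0176, and COR was listed at 0. SAG was the one library above 1 FPKM, with an estimated 347 fragments against 40.7 in GP, while the PF value stood at about 1 estimated fragment (1.08). On the FPKM + 1 scale SAG was 3.44-fold above PF and 2.60-fold above GP.

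*Jag2* (chromosome 12, 114146801 to 114167706) encodes the second Jagged ligand, known from limb and palate development. It was below 1 FPKM everywhere, with 0.624 for SAG, 0.329 for GP, and 0.0517 for COR, and was listed at 0 in PF. It passed the filter of 1 FPKM in no comparison, and its log2 ratios are not read here. Of the summed ligand FPKM, *Jag1* made up 99.2% in PF, 89.7% in GP, 54.2% in SAG, and 98.8% in COR. The remainder in SAG was 36.7% *Dll1* and 9.17% *Jag2*, on a sum of 6.81 FPKM.

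**Figure D2:**
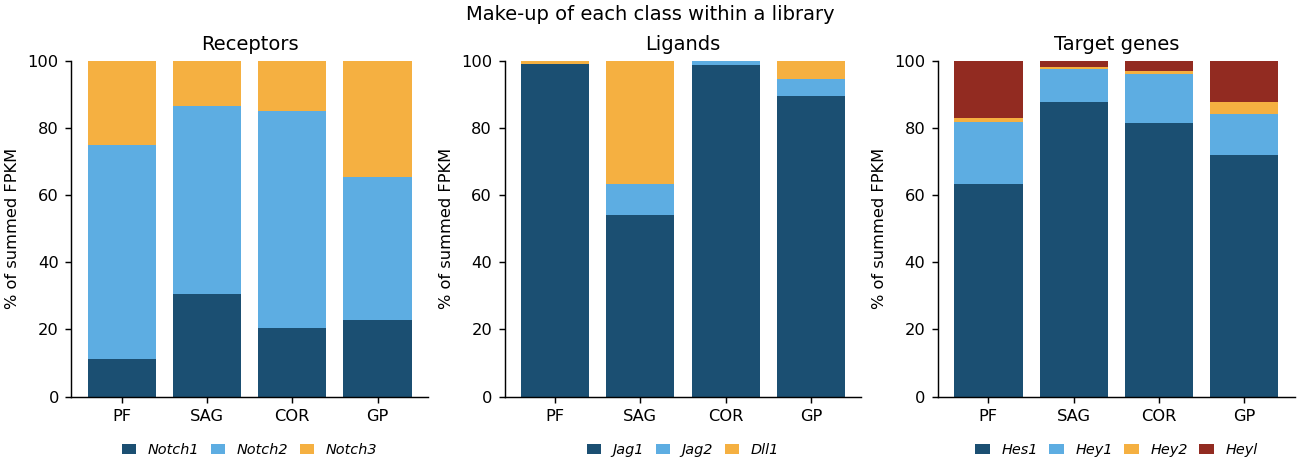
Share of each gene in the summed FPKM of its class, in percent, with 1 stacked bar per library for the receptors, the ligands, and the target genes. *Dll1* fills 36.7% of the ligand bar in SAG and at most 5.29% elsewhere, and *Heyl* fills 17.0% of the target bar in PF and 12.2% in GP, against 1.73% in SAG and 3.07% in COR.

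Among the target genes, *Heyl* differed most between tissues. *Heyl* (chromosome 4, 122910799 to 122927118) encodes a Hey family repressor known from vascular smooth muscle. It was at 21.5 FPKM in PF, 7.54 in GP, 1.92 in SAG, and 2.02 in COR, from an estimated 1666, 1120, 338, and 314 fragments. As for *Notch3*, PF was highest, GP next, and SAG and COR held the lower values. The log2 ratio of PF was 2.95 over SAG, 2.90 over COR, and 1.40 over GP. As a plain FPKM ratio, PF stood 11.2 times above SAG and 10.6 times above COR. Of the 13490 genes compared between PF and SAG, 81 had a log2 ratio at or above that of *Heyl*, and of the 12853 compared between PF and COR, 67 did. GP also stood above SAG and COR, with log2 ratios of -1.55 for SAG over GP and -1.50 for COR over GP.

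*Hes1* (chromosome 16, 30064470 to 30067882) encodes the repressor that is the most widely used readout of Notch activity, although other pathways also switch it on. It was the most abundant of the 10 genes in every library, at 80.3 FPKM in PF, 44.6 in GP, 96.9 in SAG, and 53.7 in COR. SAG was highest and GP lowest, and the span was 2.15-fold on the FPKM + 1 scale. Between 91.2% and 96.2% of all genes lay below *Hes1* in each library. The log2 ratio of PF was -0.27 over SAG, 0.57 over COR, and 0.83 over GP.

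*Hey1* (chromosome 3, 8663362 to 8667039) encodes a Hey family repressor that is also induced by BMP signals in bone cells. Its level was 23.3 FPKM in PF, 7.49 in GP, 11.2 in SAG, and 9.67 in COR. PF was again the highest, with log2 ratios of 1.0 over SAG, 1.19 over COR, and 1.52 over GP. The ratio to GP was 2.87-fold, the largest of the 3.

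*Hey2* (chromosome 10, 30552165 to 30562607) encodes a Hey family repressor known from the heart and arteries. It was the lowest of the target genes in each library, at 1.40 FPKM in PF, 2.29 in GP, 0.551 in SAG, and 0.555 in COR. These rest on an estimated 61.1, 191, 54.6, and 48.4 fragments, the fewest of the target genes. GP and PF were the higher pair, and the log2 ratio was -1.09 for SAG over GP and -1.08 for COR over GP.

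Set against *Hes1* in the same library, *Heyl* was 0.268 times as high in PF and 0.169 times in GP, but 0.0198 times in SAG and 0.0376 times in COR. *Heyl* and *Hey1* were near the same FPKM in PF and GP, with ratios of 0.921 and 1.01, and *Heyl* was well below *Hey1* in SAG and COR, with ratios of 0.171 and 0.209. The summed level of the 4 target genes was 126.5 FPKM in PF, 61.9 in GP, 110.6 in SAG, and 66.0 in COR, and *Hes1* made up 63.4% to 87.7% of it.

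To set the 10 genes against the whole transcriptome, genes at or above 1 FPKM in either library of a pair were compared, and a difference was counted at 3-fold and at 2-fold, in either direction. Between PF and SAG, 9 of the 10 passed this filter and 2 were 3-fold apart, *Heyl* higher in PF and *Dll1* higher in SAG, where 15.7% of all 13490 genes compared were. At 2-fold *Notch2* and *Notch3* joined them, giving 4, where 34.7% of all genes were. Between PF and COR, 8 passed, 1 was 3-fold apart (*Heyl*), where 11.7% of genes were, and 4 were 2-fold apart (*Notch2*, *Notch3*, *Hey1*, and *Heyl*), where 29.4% of genes were. All of these but *Dll1* were higher in PF.

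Between PF and GP, 8 passed, 0 were 3-fold apart, where 12% of genes were, and 4 were 2-fold apart, where 29.1% of genes were. *Notch2*, *Hey1*, and *Heyl* were higher in PF and *Jag1* in GP. Between SAG and GP, 9 passed, 0 were 3-fold apart, where 8.66% of genes were, and 5 were 2-fold apart, where 18.0% were. *Dll1* and *Hes1* were higher in SAG, and *Notch3*, *Hey2*, and *Heyl* were higher in GP.

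Between COR and SAG, 8 passed and *Dll1*, listed at 0 in COR, was the 1 gene counted at either threshold, where 9.25% of genes were 3-fold and 20.1% were 2-fold apart. A 0 in COR need not mean a low level, since *Sparc*, a gene of bone matrix at 3723 to 9849 FPKM in the other libraries, was listed at 0 there too. Between COR and GP, 8 passed, 0 were 3-fold apart, where 4.4% of genes were, and 2 were 2-fold apart (*Hey2* and *Heyl*, both higher in GP), where 9.95% were. *Jag2* passed in no pair, *Dll1* was left out of PF and COR, PF and GP, and COR and GP, and *Hey2* was left out of COR and SAG. With so few genes, a share near that of all genes is no property of the set, and the comparisons are not independent of each other, since each library enters 3 of them. The median log2 ratio over the genes that passed was 0.63 for PF over SAG, 0.89 for PF over COR, and 0.66 for PF over GP, where all genes compared had medians of 0.03, 0.05, and 0.03. For COR over SAG, SAG over GP, and COR over GP the medians were -0.07, -0.06, and -0.31, where those of all genes were -0.02, 0.03, and 0.02.

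**Figure D3:**
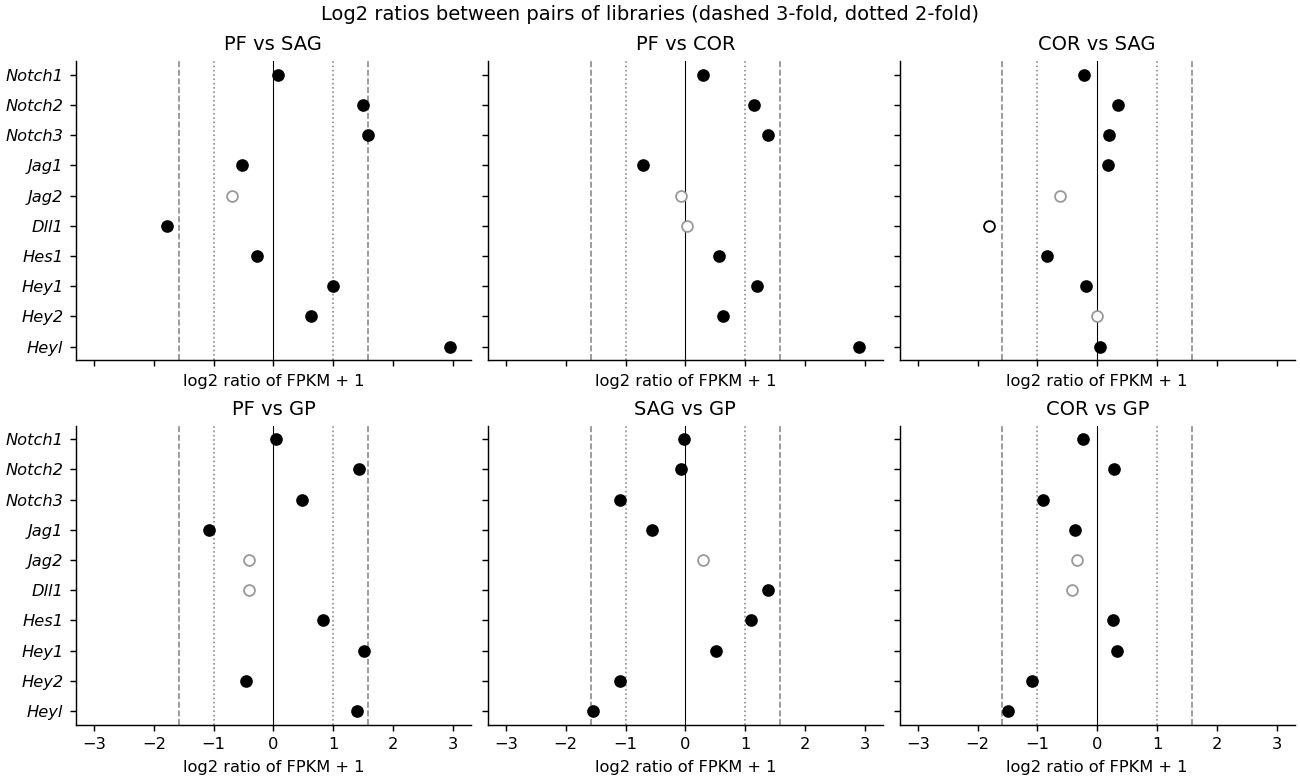
Log2 ratios of FPKM + 1 of the 10 genes in each of the 6 pairs of libraries, first over second, with dashed lines at 3-fold and dotted lines at 2-fold. Filled points passed the filter and were above 0 in both libraries, open black points passed with 1 library listed at 0, and open grey points did not pass. *Heyl* lies beyond 3-fold for PF over SAG and PF over COR, at 2.95 and 2.90, and *Notch3* lies on the line for PF over SAG, at 1.58.

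The log2 ratios were recomputed under other ways of scaling and correcting the FPKM values. Over these, *Heyl* ranged from 2.51 to 3.42 on the log2 scale for PF over SAG and from 2.68 to 3.35 for PF over COR, beyond 3-fold in each case. *Notch3* ranged from 0.91 to 2.33 for PF over SAG, the lower value coming with a correction for GC content and the upper with a pseudocount of 0.1. For PF over GP, the GC correction took *Notch3* from 0.48 to -0.01. *Notch2* ranged from 1.18 to 1.95 for PF over SAG and from 0.98 to 1.39 for PF over COR. *Notch1* turned in direction, from 0.07 to -0.48 for PF over SAG, with the GC correction, so no order of the libraries is read for it. *Hes1* turned too, from -0.27 to 0.26 for PF over SAG, when values were taken relative to *Gapdh*.

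**Figure D4:**
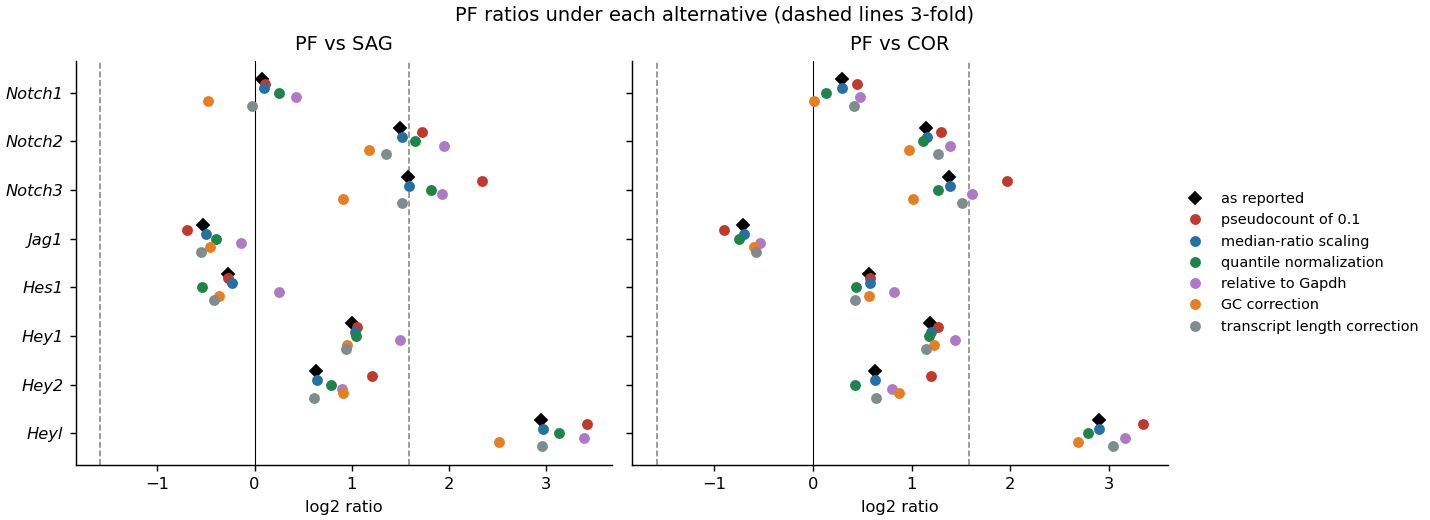
Log2 ratios of PF over SAG and PF over COR for 8 of the 10 genes, as reported (diamonds) and under 6 alternatives (circles), with dashed lines at 3-fold. *Heyl* stays between 2.51 and 3.42 in PF over SAG, and *Notch3* spreads from 0.91 to 2.33. *Jag2* and *Dll1* are left out because each was listed at 0 in 1 of the 3 libraries.

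Genes that resembled each other over the 4 libraries were found from the Euclidean distance between their mean-centred log2(FPKM + 1) values, which describes 4 points and says nothing of shared control. Within the pathway, *Notch2* and *Hey1* were each other's nearest, at a distance of 0.47, both with PF at the top. *Notch1* and *Jag2* were each other's nearest, at 0.55, though *Jag2* was below 1 FPKM in every library. *Notch3* and *Hey2* were each other's nearest, at 0.77, both low in SAG and COR. The nearest to *Heyl* was *Nrarp*, at 0.57. In the whole table, among 9802 genes at 5 FPKM or more in at least 1 library, *Heyl* lay nearest to the row *Mir6345*, at 0.15, and to *Lrrc32*, at 0.22. *Mir6345* was at 6.37 FPKM in PF and 1.53 in GP, and was listed at 0 in SAG and COR. *Lrrc32*, which encodes the TGF-beta binding protein GARP, was at 18.7 FPKM in PF, 5.84 in GP, 1.50 in SAG, and 1.98 in COR.

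*Notch3* and *Hey2* were nearest to each other among the pathway genes compared, though other pairs were closer. Their promoters are shown as an example, from 250 bases before to 10 bases after the gene start. RefSeq windows on GRCm38.p6, a later build than the mm9 of the expression values, were matched for 7 of the 10 genes, and the table gave none for *Hes1*, *Hey1*, and *Heyl*. Capitals mark the core of the RBPJ motif, TGGGAA, or its reverse complement, and both windows read 5′ to 3′ on the minus strand.
Hey2, chr10:30842774-30843033: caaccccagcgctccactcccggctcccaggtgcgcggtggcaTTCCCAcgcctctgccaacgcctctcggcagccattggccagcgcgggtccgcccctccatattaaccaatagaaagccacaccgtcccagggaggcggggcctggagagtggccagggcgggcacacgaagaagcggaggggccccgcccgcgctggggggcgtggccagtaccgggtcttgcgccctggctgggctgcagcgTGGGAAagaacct
Notch3, chr17:32166881-32167140: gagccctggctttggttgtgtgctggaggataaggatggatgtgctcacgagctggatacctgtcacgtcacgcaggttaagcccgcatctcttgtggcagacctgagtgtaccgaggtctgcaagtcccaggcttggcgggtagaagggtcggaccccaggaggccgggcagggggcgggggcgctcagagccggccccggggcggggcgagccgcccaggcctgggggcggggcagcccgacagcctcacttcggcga

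The *Hey2* window held 2 matches, with first bases at -207 (reverse) and -3 (forward) from the gene start, and the *Notch3* window held none. On either strand, TGGGAA was found in 25.6% of the 32851 RefSeq promoter windows of 300 bases, and among the 7 genes matched it was found in *Hey2* alone. The E-box CACGTG, a sequence that Hes and Hey repressors can bind, was found in 7.15% of all windows and in 0 of the 7 genes. A match describes these letters in this window and is not evidence of binding.

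The wider pathway was read from a list of 46 further genes, of which 35 to 39 passed the filter in a given comparison. At 3-fold, PF exceeded SAG for 3 of them and was below SAG for 2, exceeded COR for 4 and was below it for 1, and exceeded GP for 2 and was below it for 1. COR exceeded SAG for 1 and was below it for 3, SAG exceeded GP for 2 and was below it for 0, and COR exceeded GP for 0 and was below it for 2. In sum these were 5 of 39 genes, 5 of 37, 3 of 37, 4 of 38, 2 of 38, and 2 of 35, beside shares of all genes of 15.7%, 11.7%, 12%, 9.25%, 8.66%, and 4.4%. The median log2 ratios over the list lay between -0.05 and 0.11, where those of all genes lay between -0.02 and 0.05.

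Among other ligands, *Dlk1*, a non-canonical ligand gene known from preadipocytes, was at 96.4 FPKM in PF, 145 in GP, 88.9 in SAG, and 6.57 in COR. COR alone was low. *Dll3*, a Delta gene of somites and neural cells whose product inhibits the pathway in the cell that makes it, was at 0.0340 FPKM in PF, 0.0793 in GP, 7.68 in SAG, and 0.520 in COR, with SAG the high library as for *Dll1*. *Dner*, a non-canonical ligand gene known from neurons, was at 10.5 FPKM in PF, 0.883 in GP, 3.41 in SAG, and 2.51 in COR.

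*Dll4*, the Delta ligand of arterial endothelium, was singled out after its values were seen, since it was counted at 3-fold, higher in PF, in all 3 comparisons with PF but stayed below 5 FPKM. PF held 2.56 FPKM and SAG 0.0553, and it was listed at 0 in COR and GP. *Dlk2*, also named after its values were seen, was at 0.0463 FPKM in PF, 2.94 in GP, 0.489 in SAG, and 4.40 in COR. The fourth receptor gene, *Notch4*, was at 0.272 FPKM or less in every library.

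Among other targets, *Nrarp*, a feedback inhibitor that Notch itself induces, was at 13.8 FPKM in PF, 8.09 in GP, 2.08 in SAG, and 1.63 in COR. PF and GP were high and SAG and COR low, and the log2 ratio was 2.26 for PF over SAG and 2.49 for PF over COR. *Hes5*, a target typical of neural progenitors, reached 9.42 FPKM in SAG, had 0.187 in GP, and was listed at 0 in PF and COR. *Numbl*, whose product is related to the Notch inhibitor Numb, was at 67.9 FPKM in PF, 27.2 in GP, 15.4 in SAG, and 32.1 in COR.

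*Rbpj*, which encodes the DNA-binding partner of the receptors, was at 0.961 FPKM in PF, 4.36 in GP, 2.38 in SAG, and 3.09 in COR, so that PF was lowest as it was for *Jag1*. *Rbpj*, *Ncstn*, and *Notch4* fell outside the rule for naming genes and were chosen after their values were seen. Of the 10 genes for receptor cleavage, 9 or 10 passed the filter and 0 were 3-fold apart in any pair. In that list *Ncstn*, a gamma-secretase subunit gene, was at 81.6 FPKM in PF, 42.1 in GP, 48.4 in SAG, and 46.3 in COR. The 5 genes that glycosylate the receptors, the 4 for ligand endocytosis, and the 7 of the nuclear complex also gave 0 genes 3-fold apart in every pair. With 4.4% to 15.7% of all genes past 3-fold, a count of 0 in lists of this size sets them apart from no other genes.

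Markers of cell types that use the pathway were read beside these genes. The 8 mural cell markers, of pericytes and smooth muscle, summed to 650 FPKM in PF, 511 in GP, 66.2 in SAG, and 293 in COR, with 8, 7, 4, and 6 of them at 1 FPKM or more. *Acta2* was the largest term of this sum in every library, at 530 FPKM in PF and 400 in GP. Of these 8 markers, *Rgs5* was at 7.50 FPKM in PF, 10.8 in GP, 0.614 in SAG, and 0.432 in COR. *Myh11* was at 17.3, 19.2, 0.425, and 3.46 FPKM in these libraries. *Heyl*, *Notch3*, and *Nrarp* were higher in both PF and GP than in both SAG and COR, and so were 6 of the 8 markers. The share of all genes with this pattern, or highest in a given library, was not counted for this or the lists below. The exceptions were *Pdgfrb*, with 26.7 FPKM in COR against 20.5 in GP, and *Cspg4*, highest in COR at 19.7 FPKM and lowest in PF at 8.81. COR was well above SAG for *Acta2*, at 232 against 38.9 FPKM. The part of these cells in the result was not tested.

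The 10 endothelial markers summed to 50.2 FPKM in PF, 16.7 in GP, 24.3 in SAG, and 12.7 in COR, with 4, 3, 2, and 3 of them at 1 FPKM or more. The defining genes did not move together. *Pecam1*, at 0.295 FPKM or less, and *Cdh5*, at 1.68 or less, were highest in PF, *Kdr* was highest in SAG, at 14.9 FPKM against 2.12 in PF, and *Emcn* was highest in GP, at 0.738 FPKM. In all, 4 of the 10 were highest in PF, and of these *Esam* was at 29.5 FPKM in PF, 10.5 in GP, 0.727 in SAG, and 2.60 in COR. *Dll4* was highest in PF as well, and the part of endothelial cells in it was not tested.

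The 8 neural markers summed to 8.27 FPKM in PF, 6.13 in GP, 57.1 in SAG, and 13.1 in COR, with 3, 3, 7, and 3 of them at 1 FPKM or more. *Pax6* made up most of the SAG sum, at 41.6 FPKM, and *Snap25* was at 2.21 FPKM in SAG. The 8 markers of choroid plexus summed to 5414 FPKM in SAG, against 515 in PF, 223 in COR, and 135 in GP. *Ttr* alone made up 5103 FPKM of the SAG sum, and 6 of the 8 were highest in SAG, while *Enpp2* was highest in GP and *Aqp1* in COR. *Dll1*, *Dll3*, and *Hes5* were each highest in SAG, and the part of neural or choroid plexus RNA in their levels was not tested.

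The 8 chondrocyte markers summed to 3779 FPKM in SAG and 3025 in GP, against 212 in PF and 191 in COR. Of these, 4 were highest in SAG and 4 in GP, the libraries in which *Dll1* was also higher, and their part in its level was not tested. The 8 osteoblast markers summed to 10933 FPKM in PF, 10981 in GP, 3993 in SAG, and 3537 in COR, with *Sparc* the largest term in all but COR. The other 7 osteoblast markers were all highest in COR, where *Sparc* was listed at 0. The 8 blood markers summed to 40.7 FPKM in PF and 5.87 to 11.1 elsewhere, and *Ptprc*, the gene of CD45, was at 0.568 FPKM or less. *Lyz2* was the largest term of the PF sum, at 30.2 FPKM. The part of blood cells in the PF levels was not tested. The genes of the sorting antigens, *Itgav* for CD51 and *Cd200*, were both above 5 FPKM in every library. Among genes of antigens sorted against, *Enpep*, for 6C3, was at 7.05 FPKM in PF, 1.39 in GP, 2.74 in SAG, and 3.74 in COR. *Tek*, for Tie2, was at 0.627 FPKM or less, *Thy1* at 0.435 or less, and *Eng*, for CD105, at 1.70 or less.

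**Figure D5:**
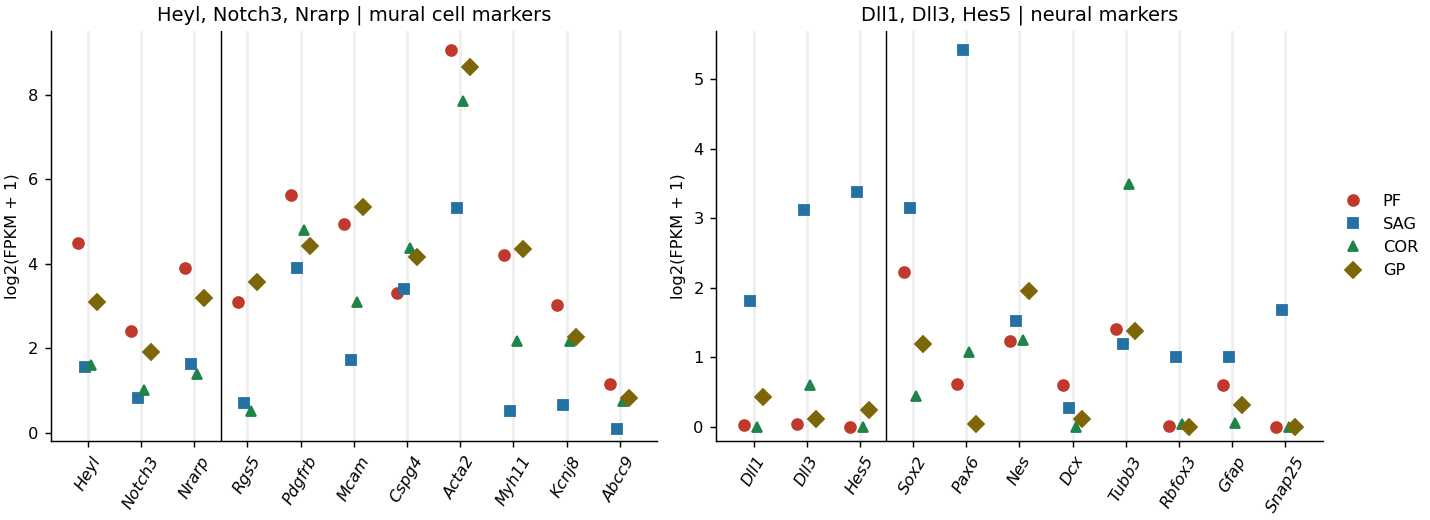
Levels as log2(FPKM + 1) in PF, SAG, COR, and GP, 1 point per library. The left panel sets *Heyl*, *Notch3*, and *Nrarp* beside the 8 mural cell markers, 6 of which are likewise higher in PF and GP than in SAG and COR, and the right panel sets *Dll1*, *Dll3*, and *Hes5* beside the 8 neural markers, where *Pax6* reaches 41.6 FPKM in SAG.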

How the data were processed

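RNA was extracted from CD51+;CD200+ cells, with 1 library for each of 3 sutures and for the GP. The authors made cDNA from it, amplified the cDNA with a kit for low RNA input, and sequenced it. Read pairs were aligned by the authors to mm9 with STAR 2.5.1b, estimated gene levels with Cuffdiff of Cufflinks 2.2.1 on the Illumina iGenomes gene model, and deposited the FPKM of each gene symbol. The submitters' processing notes also name R 3.2.2. The scaling between libraries within Cuffdiff is not given in the sources used here. The deposited tables of single cells were not used here.

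Tissues were taken from the sample labels. The 10 genes, the pathway list, and the marker lists were chosen with earlier results of these data known, so no pattern is offered as independent support. Genes named were the 10, the markers, wider pathway genes at 5 FPKM or more in 1 library and 3-fold apart in any pair (exceptions are marked where they occur), and the 2 genes nearest in pattern to each of the 10 that was 3-fold apart. For *Dll1* the nearest genes are not reported here. Log2 ratios used a pseudocount of 1 and a filter of 1 FPKM in either library. Fragments were estimated from the steps of FPKM multiplied by transcript length, and 75.9% to 79.7% of the low values used lay within 0.2 of a whole number of steps. Positions, lengths, and GC content came from the GENCODE annotation of mm9, which covered 80.8% of the symbols and all 10 genes. No test was made, since there were no replicates, and estimated fragments cover counting only. They are fragments of amplified cDNA and do not give the number of starting RNA molecules. Software was matplotlib 3.10.9, numpy 2.4.6, statsmodels 0.14.6, pandas 2.3.3, scipy 1.17.1, and Python 3.11.15. The scripts were checked on simulated data with known folds.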

Additional observations from a re-analysis of the deposited data

How the results depend on the processing

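Each count of genes 3-fold apart was recomputed under 10 alternatives, of which the correction for transcript length was chosen after seeing the data. With a pseudocount of 0.1, the count went from 2 to 4 for PF and SAG, from 1 to 2 for PF and COR, from 0 to 2 for PF and GP, from 0 to 4 for SAG and GP, and from 0 to 2 for COR and GP. The share of all genes 3-fold apart rose as well with this pseudocount, to 27.4%, 22.8%, 22.4%, 14.8%, and 8.26% in these pairs. Relative to *Gapdh*, the count was 4 for PF and SAG, 2 for PF and COR, and 3 for PF and GP. The share of all genes 3-fold apart was then 18.7%, 13.9%, and 14.4%. This scaling moved the median log2 ratio of all genes to 0.51, 0.29, and 0.46 in these pairs. The median moved to 0.23 for COR over SAG and to 0.21 for COR over GP. Quantile normalization gave 4 for PF and SAG and 1 for SAG and GP, where 15.7% and 8.78% of all genes were 3-fold apart. Median-ratio scaling gave 3 for PF and SAG, with *Notch3* added, where 15.6% of all genes were. The GC and length corrections each gave 1 for COR and GP. There, 4.31% and 4.29% of the 11101 genes compared that had a coding transcript in the annotation were 3-fold apart. A 2-fold threshold gave 4, 4, 4, 5, and 2 for PF and SAG, PF and COR, PF and GP, SAG and GP, and COR and GP. The shares of all genes 2-fold apart were 34.7%, 29.4%, 29.1%, 18.0%, and 9.95%. A filter of 5 FPKM in either library, and a filter of 1 FPKM in both, each gave 1 for PF and SAG and 0 for COR and SAG, since *Dll1* no longer passed. The shares of all genes in these pairs were 15.3% and 10.3% with 5 FPKM in either library. They were 8.76% and 5.56% with 1 FPKM in both. For the other changes in count, the cause was not tested. Of the 60 log2 ratios, 47 kept their sign under all 6 alternatives for scaling and correction. The pseudocount of 0.1 is among these alternatives and cannot change a sign. The ratios beyond 3-fold were *Heyl* for PF over SAG and PF over COR, and *Dll1* for PF over SAG and COR over SAG. Of these, 0 turned in direction. Of 40 shares, 0 moved by more than 5 percentage points with quantile normalization, added after seeing the data. No paired analysis was possible because there was a single library for every tissue, and for the same reason no replicate could be left out. PF was the shallowest library, and the *Dll1* value there, near 1 estimated fragment, cannot be told from 0. *Jag2* was listed at 0 in PF, and its COR value rested on an estimated 7.18 fragments.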
